A study of Rattus norvegicus with 36 samples.

Results

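Mammary glands of vehicle-treated rats were compared between the strains Cop (Copenhagen) and F344 (Fischer) at the last time point of a carcinogen study. The comparison rests on 6 of the 36 Affymetrix arrays, chosen by their titles: 3 from Cop and 3 from F344 rats that had received saline vehicle at 55 d of age and whose glands were collected 30 d later. In the whole study, rats of both strains received saline or N-nitrosomethylurea (NMU), an alkylating carcinogen, and glands were taken at 6 h, 1 d or 30 d, which gives 12 groups of 3 arrays. The 12 control arrays of 6 h and 1 d (early controls) and the 6 NMU arrays of 30 d serve here as other glands in which the same strain difference was measured. The labels call the replicates biological but do not say whether an array holds 1 animal or a pool, so p-values measure the spread between arrays, which may be technical. Sex, estrous stage and time of day are not stated in the labels.

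F344 rats readily develop mammary carcinomas after NMU, whereas Cop rats carry inherited resistance to mammary tumours. The gland is a branching epithelium of luminal and basal cells set in a fat pad, with vessels, immune cells and often a draining lymph node or a strip of body wall muscle. Its epithelium proliferates and makes milk proteins under ovarian hormones and prolactin, which act through the receptors Esr1, Pgr and Prlr and the transcription factor Stat5a.

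Markers of gland tissue were present in all 6 arrays. The fat hormone Adipoq had a mean log2 value of 11.87 ± 0.30 in Cop and 12.06 ± 0.09 in F344 (SD, n = 3 each), and the luminal keratin Krt8 had 10.26 ± 0.61 and 10.32 ± 0.10. The milk protein Lalba had 13.36 ± 0.18 and 13.22 ± 0.27. The arrays were not alike in their other tissues. Acta1, skeletal muscle actin, had values of 4.29, 11.63 and 8.05 in F344 replicates 1, 2 and 3, against 11.48, 12.06 and 11.88 in Cop. Replicates of these glands differed by a root mean square of 0.327 to 0.487 over all probe sets. In the whole series such pairs ran from 0.163 to 0.645. Those with replicate 2 of either strain here (0.447 to 0.487) were among the widest. With arrays there is no read depth. Each mean rests on 3 arrays, while the spread behind the SE and p-values below was pooled over all 12 groups.

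Of 20749 probe sets tested, 587 differed between the strains at a limma adjusted p under 0.05, which is 2.83% and is meant below by "called". Of these, 251 (1.21%) were higher and 336 (1.62%) lower in Cop. With 1 probe set per gene, 307 of 11509 genes (2.67%) were called, 123 higher (1.07%) and 184 lower (1.6%). The median absolute difference of the called probe sets was 0.82 on the log2 scale, 204 differed by more than 1 (89 higher, 115 lower) and 50 by more than 2. In 559 of the 587 every array of one strain lay above every array of the other, which was so for 2667 (12.9%) of all probe sets tested. The median difference over all probe sets was -0.02. The count fell to 322 without F344 replicate 1, and to 133 (66 higher, 67 lower) when the spread was taken from the 6 arrays alone. Of 63 called genes that the naming rule gave, 32 lost the call in that last setting, namely Krt15, Col8a1, Sema6a, Crim1, Gnmt, C5h8orf88, Chi3l1, Tfap2b, Akr1c19, Socs2, Stat5a, Igf2, Egfl7, Gzma, Gzmb, Oas1b, Cxcl9, RT1-CE5, RT1-CE10, Sele, Ccl11, Aox1, Gsto1, Gstm1, Gstt3, Hlf, Dbp, Wif1, Sfrp1, Erbb2, Naif1 and Phactr1.

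With the brightest probe set standing for each gene, the largest rise in Cop was that of Lcn2, lipocalin 2, a secreted protein that binds bacterial iron carriers. Its log2 values were 12.21, 12.53 and 12.94 in Cop and 6.67, 7.68 and 7.15 in F344. The arrays of the strains lay far apart, with a difference of 5.40 (SE 0.37, limma adjusted p = 4.79e-11), or 42.2-fold. RGD1309362, a locus without an assigned gene name, had 8.50, 8.39 and 8.69 in Cop and 4.02, 3.99 and 3.88 in F344, a difference of 4.56 (SE 0.21, limma adjusted p = 2.49e-15). Its F344 values were under the 40th percentile of their arrays (4.98 to 5.15), below which probe sets were treated as dim, so the size of 4.56 is uncertain. Raised to that percentile, they left a difference of 3.51, which serves as a lower bound. No F344 array was above its percentile for Reg3g, Zfp347 and Sele either, where 0.39, 1.06 and 0.25 remained. In Cop this was so for Cemip2, Krt6c, Rnf180, Gpr37, C5h8orf88 and Klkb1. Their remaining differences were -2.54, -2.07, -0.97, -1.12, -0.47 and -0.21. Both Lcn2 and RGD1309362 kept their calls whichever array was left out.

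Abca1, the membrane pump that exports cholesterol, had 10.04, 10.06 and 10.60 in Cop and 7.38, 7.84 and 7.53 in F344, a difference of 2.65 (SE 0.26, limma adjusted p = 4.1e-08). Its other 3 probe sets gave 1.83, 0.61 and 0.45, of which the first was called. Cyp4v3, a cytochrome P450 that hydroxylates fatty acids, had 7.78, 7.41 and 7.94 in Cop and 5.11, 4.83 and 5.50 in F344 and was higher by 2.57 (SE 0.18, limma adjusted p = 1.75e-11). Hpse, heparanase, which trims heparan sulfate in the matrix, had 7.19, 6.74 and 6.90 against 4.81, 5.23 and 4.80, a difference of 2.0. These genes, like the others named for the largest differences, were picked among called genes without overlap of the strains. Their separation is therefore not further support.

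Spp1, osteopontin, a secreted phosphoprotein, had 7.03, 7.56 and 8.12 in Cop and 5.76, 5.54 and 5.98 in F344 (difference 1.81, SE 0.25, limma adjusted p = 1.76e-05). Reg3g, an antibacterial lectin, was higher by 1.65, of which 0.39 remained with the dim values raised as above, and Golm1, a Golgi membrane protein, by 1.39, with a second Golm1 probe set at 1.66. Hyou1, a chaperone of the endoplasmic reticulum, had 7.87, 7.80 and 7.73 in Cop and 6.14, 6.48 and 6.62 in F344. It was higher by 1.38 (SE 0.22, limma adjusted p = 0.000126), and its second probe set by 0.92. The guidance cue Sema6a was higher by 1.43 on its brighter probe set, while the other gave -0.00 and was not called. The zinc finger gene Zfp347 was higher by 1.43 and Crim1, a membrane protein that binds bone morphogenetic proteins, by 1.36.

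Some of the large differences were less secure. The protease inhibitor Spink8, 2.39 higher in Cop (limma adjusted p = 0.0298), lost its call when any of the 6 arrays was left out. Calhm6, a channel protein of the calcium homeostasis modulator family, was higher by 1.85 (limma adjusted p = 0.0452) and lost its call in 5 of the 6 cases, without every array except F344 replicate 2. Col8a1, a collagen chain, had 8.05, 5.78 and 6.67 in Cop and 5.40, 5.15 and 5.47 in F344. Its difference of 1.49 rested largely on Cop replicate 1, without which the call was lost.

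**Figure D1:**
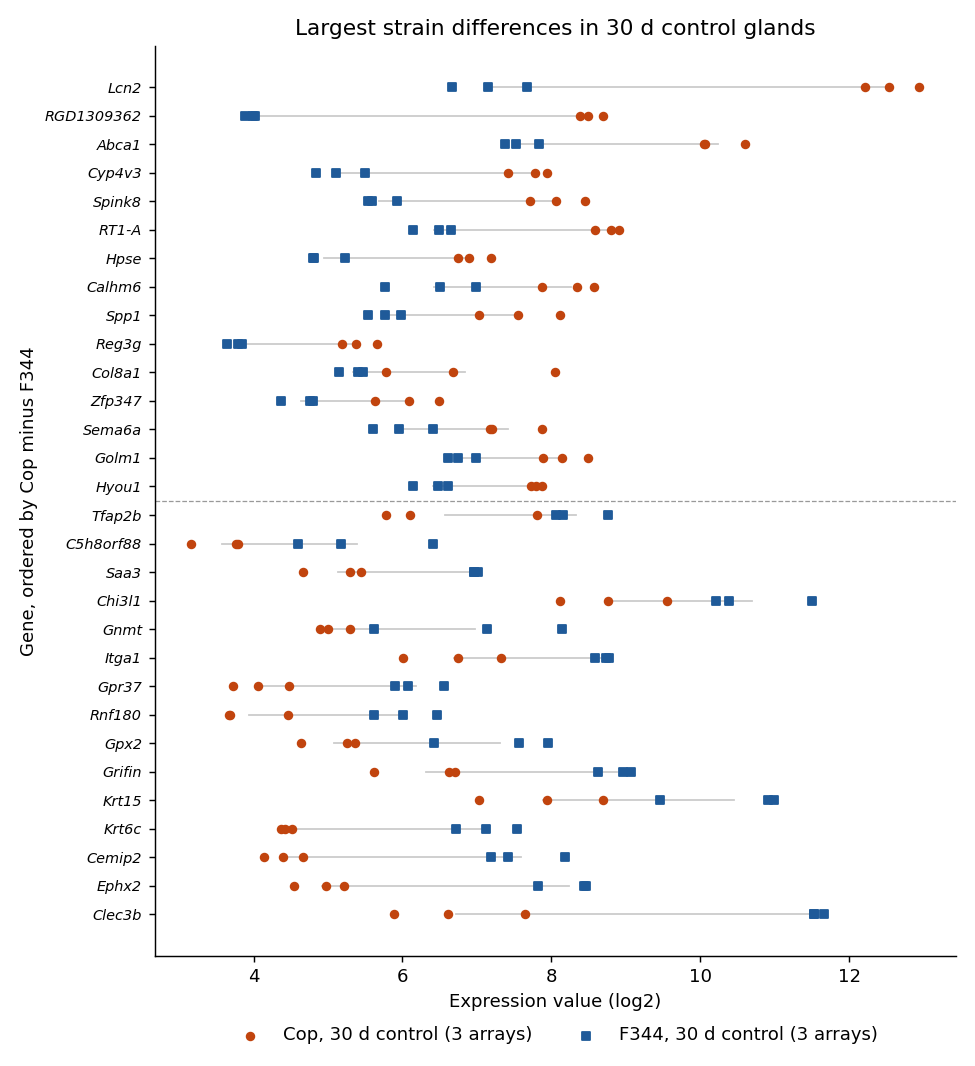
Log2 expression values (horizontal axis) of the 15 genes most raised and the 15 most lowered in Cop, ordered by difference. The genes were picked among called genes without overlap of the strains. Each has 3 points per strain from the 30 d control arrays and a grey line between the strain means. Cop (circles) lies right of F344 (squares) above the dashed line and left of it below, and Lcn2 and Clec3b are the most widely separated at 5.40 and -4.86.

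The gene most lowered in Cop was Clec3b, tetranectin, a plasminogen-binding protein of plasma and matrix. Its log2 values were 7.65, 5.89 and 6.61 in Cop and 11.66, 11.53 and 11.53 in F344, a difference of -4.86 (SE 0.48, limma adjusted p = 1.15e-07). A second probe set of the gene gave -4.11, with the strains as clearly apart. Ephx2, the soluble epoxide hydrolase that clears fatty acid epoxides, had 4.98, 5.22 and 4.55 in Cop against 8.46, 7.83 and 8.44 in F344, a difference of -3.33 (SE 0.20, limma adjusted p = 7.5e-13), or 10.1-fold. Cemip2, a cell-surface hyaluronidase, had 4.66, 4.13 and 4.39 against 7.19, 8.18 and 7.41 (difference -3.20, SE 0.24, limma adjusted p = 4.79e-11). The calls of these 3 genes held whichever array was left out.

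Krt15, a keratin of basal and progenitor cells of stratified and glandular epithelia, had 7.03, 7.94 and 8.69 in Cop and 10.99, 9.45 and 10.92 in F344, a difference of -2.57 (SE 0.46, limma adjusted p = 0.001). As the naming rule requires, the lowest F344 array, replicate 2, was above the highest Cop array. Krt6c, a keratin of the type induced in activated epithelium, had 4.52, 4.42 and 4.37 against 7.13, 7.54 and 6.71. The difference was -2.69 (limma adjusted p = 1.21e-05), and -3.11 on its second probe set. Itga1, the collagen-binding integrin chain, had a difference of -2.01, and Grifin, a galectin-related protein, of -2.57. The basal marker list, which was drawn up for the tissue check, had 15 members tested of which none was called in either direction (median difference -0.13, against -0.03 over all genes).

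Gpx2, a glutathione peroxidase of epithelia, had 4.64, 5.36 and 5.25 in Cop and 7.95, 6.43 and 7.57 in F344, a difference of -2.23 (SE 0.25, limma adjusted p = 2.93e-07). Rnf180, a ubiquitin ligase, had 3.69, 3.66 and 4.46 against 6.00, 6.47 and 5.61 (difference -2.09), and Gpr37, an orphan receptor, had a difference of -2.09. That all Cop arrays of these 3 genes were below all F344 arrays follows from the naming rule. Gnmt, which methylates glycine, had a difference of -1.91, but its F344 values ranged from 5.62 in replicate 2 to 8.15 in replicate 1, and the call was lost without replicate 1. The uncharacterised gene C5h8orf88 (-1.82) also lost its call without F344 replicate 1, and the acute phase gene Saa3 (-1.85) without Cop replicate 1. The chitinase-like protein Chi3l1 (-1.89, limma adjusted p = 0.0483) lost its call without any array except Cop replicate 3. Tfap2b, the transcription factor AP-2 beta (-1.77, limma adjusted p = 0.0356), lost its call without Cop replicates 1 or 2 or F344 replicates 1 or 3.

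Enzymes of foreign-compound metabolism differed in both directions. The median of 19 measured genes of cytochrome P450 and phase I metabolism was 0.16. Of these, 4 were lower and none higher in Cop, against 1.6% and 1.07% of all genes. Besides Ephx2 these were Cbr1, a carbonyl reductase, with 8.14, 8.49 and 8.73 in Cop and 10.29, 9.45 and 10.05 in F344 (difference -1.48, SE 0.20, limma adjusted p = 1.61e-05), the aldose reductase-like Akr1b8 (-1.04) and the aldehyde oxidase Aox1 (-0.82). Aox1 lost its call without Cop replicate 2 or F344 replicates 1 or 3. Of 28 genes of glutathione and phase II metabolism (median -0.05), 2 were higher and 2 lower, against 1.07% and 1.6% of all genes. The same shares are the background for each list below. The glutathione transferase Gstm1 had 8.87, 8.56 and 8.65 in Cop and 7.61, 7.98 and 7.85 in F344 (difference 0.88, SE 0.16, limma adjusted p = 0.000702). The transferase Gstt3 was higher by 0.92, without a call when Cop replicate 3 was left out, and Gsto1 had a difference of -0.66. The steroid-metabolising Akr1c19, in neither list, had a difference of -1.63.

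Of 16 measured genes of fatty acid synthesis, 1 was called, Scd, the desaturase that makes monounsaturated fatty acids. Its log2 values were 10.97, 11.00 and 11.17 in Cop and 12.99, 12.37 and 12.94 in F344. The difference of -1.72 (SE 0.29, limma adjusted p = 0.000503) was larger than the SD within Cop (0.11) and within F344 (0.35). The median of the list was -0.33, with 13 of the 16 differences below 0, and those of the other 15 genes were not called. None of 23 adipocyte markers (median -0.13) and none of 15 genes of cholesterol synthesis (median -0.21) was called.

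Of 13 prolactin and Stat5 effectors, 1 was higher and 2 were lower, beside 1.07% and 1.6% of all genes. Socs2, a suppressor of cytokine signalling, was higher by 1.14, while Stat5a (-0.66) and the growth factor Igf2 (-1.04) were lower. Stat5a had 8.36, 8.91 and 8.44 in Cop and 9.18, 9.23 and 9.29 in F344 (limma adjusted p = 0.0291). The F344 arrays were tightly grouped above all Cop arrays, but the call was lost without any array except Cop replicate 2. After quantile normalization neither Stat5a nor Igf2 was called. Igf2 (limma adjusted p = 0.0456) lost its call without any array except F344 replicate 2, and Socs2 without Cop replicate 1 or F344 replicates 1 or 3. Of 14 steroid hormone receptors and targets 1 was called, the insulin receptor Insr (-0.82), a call lost without Cop replicate 2 or F344 replicate 1. The receptors Prlr, Esr1 and Pgr had differences of -0.50, -0.24 and -0.86 and were not called. Pgr had 6.79, 4.08 and 5.13 in Cop and 5.84, 7.87 and 4.85 in F344, so its spread within each strain was wide.

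Of 22 luminal epithelial markers none was called (median -0.39), and the luminal regulator Elf5 had 9.15, 10.03 and 9.53 in Cop and 10.81, 9.99 and 10.68 in F344 (difference -0.93, limma adjusted p = 0.328). Of 13 milk protein genes, 1 was lower, the mucin Muc1, with a difference of -1.57, a call lost without Cop replicates 1 or 3 or F344 replicates 1 or 3. The milk caseins and whey protein spread widely within both strains. Csn2, beta casein, had 8.56, 13.30 and 11.66 in Cop and 13.49, 9.88 and 13.30 in F344. Wap, whey acidic protein, had 6.54, 9.83 and 9.07 in Cop and 11.16, 6.31 and 10.69 in F344. Replicate 1 was the lowest of Cop and replicate 2 the lowest of F344 for both genes, and neither strain lay apart from the other.

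Erbb2, the receptor tyrosine kinase amplified in some human breast cancers, had 6.06, 6.03 and 6.81 in Cop and 7.22, 6.97 and 6.88 in F344 (difference -0.72, SE 0.17, limma adjusted p = 0.0097). The highest Cop array was just under the lowest F344 array, and the call was lost without Cop replicates 1 or 2 or F344 replicate 1. With Igf2 it made 2 of 24 genes of the Fgf, Egf and Igf families that were lower, against 1.6% of all genes. None was higher, against 1.07%. Of 20 Wnt pathway genes, the secreted antagonist Sfrp1 was higher by 1.02 and the antagonist Wif1 had a difference of -1.44. Both calls were lost without Cop replicate 1, and also without Cop replicate 3 or F344 replicate 2 for Sfrp1 and F344 replicate 1 for Wif1. Bmp4, a growth factor, was higher by 0.73 as the single call among 22 genes of the Tgf beta, Bmp and activin families, without a call when Cop replicates 1 or 2 or F344 replicates 1 or 3 were left out.

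Endothelial and immune genes were examined as cell types the gland holds. Of 12 endothelial markers (median 0.31), 2 were higher in Cop and none lower, against 1.07% and 1.6% of all genes. Tek, the angiopoietin receptor, had 9.46, 9.59 and 9.49 in Cop and 8.75, 8.86 and 8.48 in F344 (difference 0.81, SE 0.14, limma adjusted p = 0.000374), and Egfl7, a factor secreted by endothelium, was higher by 0.62, with a second probe set at 0.54. In 5 of the 12 genes all Cop arrays lay above all F344 arrays, against 5.74% of all probe sets tested. This was not particular to endothelium, since it also held for 5 of 9 mast cell markers. All Cop arrays lay below in 6 of 22 luminal genes (above in 1) and 5 of 16 fatty acid synthesis genes, against 7.11%. In bulk tissue, fewer cells of a type and less RNA per cell cannot be told apart.

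Of 23 T and NK cell markers, the granzymes Gzma and Gzmb, proteases of cytotoxic granules, were lower in Cop although the median of the list was 0.29. Of all genes, 1.6% were called lower. Gzma had 5.38, 6.06 and 5.64 in Cop and 6.72, 6.82 and 6.67 in F344 (difference -1.04, SE 0.24, limma adjusted p = 0.0105). It lost its call without Cop replicate 1, and Gzmb (-0.82) without Cop replicates 1 or 3 or F344 replicates 1 or 3. Cd3e, a chain of the T cell receptor complex, had 9.30, 8.51 and 9.28 in Cop and 7.81, 9.33 and 8.65 in F344, with the strains overlapping. The score of the list (mean deviation of its genes from their mean over all arrays) ran from 0.34 to 0.88 in Cop and from -0.08 to 1.06 in F344. None of 11 B and plasma cell markers and none of 9 mast cell markers was called (medians 0.66 and 0.46), and of 17 macrophage markers Cd68 was higher by 0.65 (limma adjusted p = 0.0463), without a call when Cop replicates 1 or 3 or F344 replicates 1 or 3 were left out. Of the 3 neutrophil markers measured, Lcn2 was called and the other two were not.

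Of 20 chemokines, cytokines and adhesion genes (median 0.33), 2 were higher in Cop, against 1.07% of all genes. These were the endothelial adhesion molecule Sele, by 1.05, and the eosinophil attractant Ccl11, by 1.10. Sele lost its call without Cop replicate 1 or F344 replicate 3, and Ccl11 without Cop replicates 1 or 3 or F344 replicates 2 or 3. Of 31 interferon-stimulated genes (median 0.24), 2 were called with values below 0, against 1.6% of all genes. The T cell attractant Cxcl9 (-0.76) lost its call without F344 replicate 2. The antiviral synthetase Oas1b had 3.19, 3.53 and 3.50 in Cop and 4.38, 4.42 and 3.84 in F344 (difference -0.80, not called with a floor at the 20th percentile). All 6 values were under the 40th percentile of their arrays, so no direction is read from them. The second Cxcl9 probe set gave -0.56 and was not called. A probe set of Mx2, an antiviral GTPase, that was picked after its values were seen had 8.45, 7.52 and 8.45 in Cop and 3.44, 3.58 and 4.08 in F344. Its difference was 4.44 (SE 0.23, limma adjusted p = 2.51e-14), whereas the brighter probe set of the same gene gave 0.02 and was not called.

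The major histocompatibility complex of the rat, RT1, encodes the class I and class II molecules that present peptides to T cells, in many near-identical copies that differ between inbred strains. Of 26 tested probe sets for 16 RT1 genes, 7 were higher and 2 lower in Cop, against 1.21% and 1.62% of all probe sets tested. RT1-A, a class I gene, had 8.80, 8.92 and 8.58 in Cop and 6.14, 6.49 and 6.65 in F344 (difference 2.34, SE 0.20, limma adjusted p = 1.22e-09). The 4 probe sets of the class I gene RT1-CE5 were all higher in Cop, by 0.89, 2.41, 3.44 and 5.68, so that the size depended on the probe set. The largest of these had 9.50, 8.86 and 8.84 in Cop and 3.29, 3.35 and 3.53 in F344. The probe sets of the class II chain RT1-Ba disagreed in direction: its brightest gave -1.21 (limma adjusted p = 0.00198), another 2.90 (limma adjusted p = 5.96e-10), and the remaining pair 0.36 and 0.46 without a call. RT1-Db1 gave -1.64 on one probe set and 0.19 on its brighter one. Levels of single RT1 genes are therefore uncertain, and whether each probe binds the RNA of both strains equally was not tested.

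**Figure D2:**
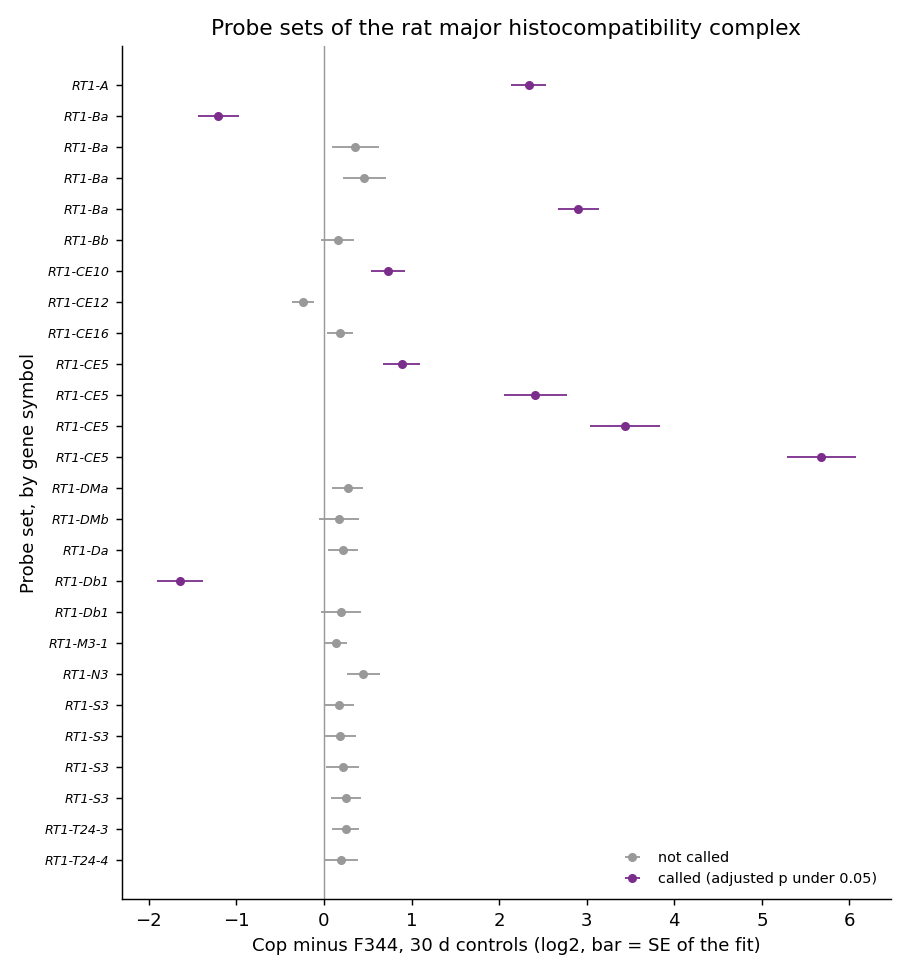
Differences between Cop and F344 in 30 d control glands (log2, horizontal axis; bars are the SE of the fit) for the 26 tested probe sets of RT1 genes, 1 row each. Called probe sets (purple) lie between -1.64 and 5.68, and the 4 RT1-CE5 and the 4 RT1-Ba rows show the disagreement between probe sets of 1 gene.

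Agreement between probe sets was moderate over all called genes. Of 157 called genes with more than 1 tested probe set, 103 (65.6%) had all of their probe sets in the same direction, 35 (22.3%) had another probe set called the same way, and 5 had one called the opposite way. Among the 57 of these genes that differed by more than 1, another probe set was called the same way in 20 (35.1%).

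Of 16 clock genes, the output regulators Dbp and Hlf, both PAR domain transcription factors, were lower in Cop, with differences of -0.83 and -0.97 (limma adjusted p = 0.0165 and 0.012), against 1.6% of all genes. Dbp lost its call without Cop replicates 1 or 2 or F344 replicates 1 or 3, and Hlf without Cop replicates 1 or 2 or F344 replicate 3. Of 21 p53 targets, 1 was lower, the kinase Plk2 (-0.71; lost without Cop replicates 1 or 2 or F344 replicate 1), and of 22 genes of the unfolded protein response Hyou1 was the single call. The list of alkylation and base excision repair had 18 members tested and no call, and Mgmt, which removes methyl groups from guanine, had 7.43, 7.07 and 7.24 in Cop and 7.49, 7.35 and 7.51 in F344. Of 6 candidate genes at mammary cancer susceptibility loci, Il6st, the shared receptor chain of the interleukin 6 family, had 10.61, 10.38 and 10.42 in Cop and 9.79, 9.99 and 9.78 in F344. It was higher by 0.62 (SE 0.09, limma adjusted p = 1.53e-05) on its brightest probe set. Its other probe sets gave -0.42, 0.47 and 0.60, of which the last was called, and with a gene's probe sets averaged the list had no call. Map3k1 (0.31) and Mier3 (-0.20) were not called. Oxidative phosphorylation (27 genes), S phase (27) and fibroblast and matrix (26) gave no call, with medians of -0.01 each. No call was made among genes of brown fat (4 tested), nerve (7), skin (9), globin (4), mismatch repair (5), complement and acute phase (11), immediate early response (19), heat shock (11), ribosome biogenesis (21), epithelial ion transport (16) or iron handling (13). The glucocorticoid-induced (12), imprinted (13) and mammary cancer gene (10) lists held 1 call each, which were Lcn2, Igf2 and Erbb2.

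Of 36 genes of G2 and M phase none was called, although 35 of the 36 differences were below 0 (median -0.55). The score of the list was 1.92, -0.17 and 1.42 in F344 replicates 1, 2 and 3 and -0.07, 0.69 and 0.80 in Cop. The proliferation marker Mki67 had 9.0, 6.19 and 7.80 in F344 and 5.95, 7.19 and 7.37 in Cop, with the strains overlapping. None of 29 skeletal muscle genes was called (median 1.38), and their score was -3.33, -0.55 and -2.52 in F344 against -0.96, -0.38 and -0.40 in Cop. F344 replicate 2 was thus highest of its strain in muscle and T and NK cell scores and lowest in proliferation and milk protein scores. Adding the muscle score to the model left 523 calls, and 5 of the 63 named genes lost theirs (Chi3l1, Stat5a, Igf2, Gzmb and Phactr1), and with the G2 and M phase score 500 and 9. Spink8, Calhm6, Tfap2b, Socs2, Stat5a, Igf2, RT1-CE10, Dbp and Phactr1 were the 9.

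**Figure D3:**
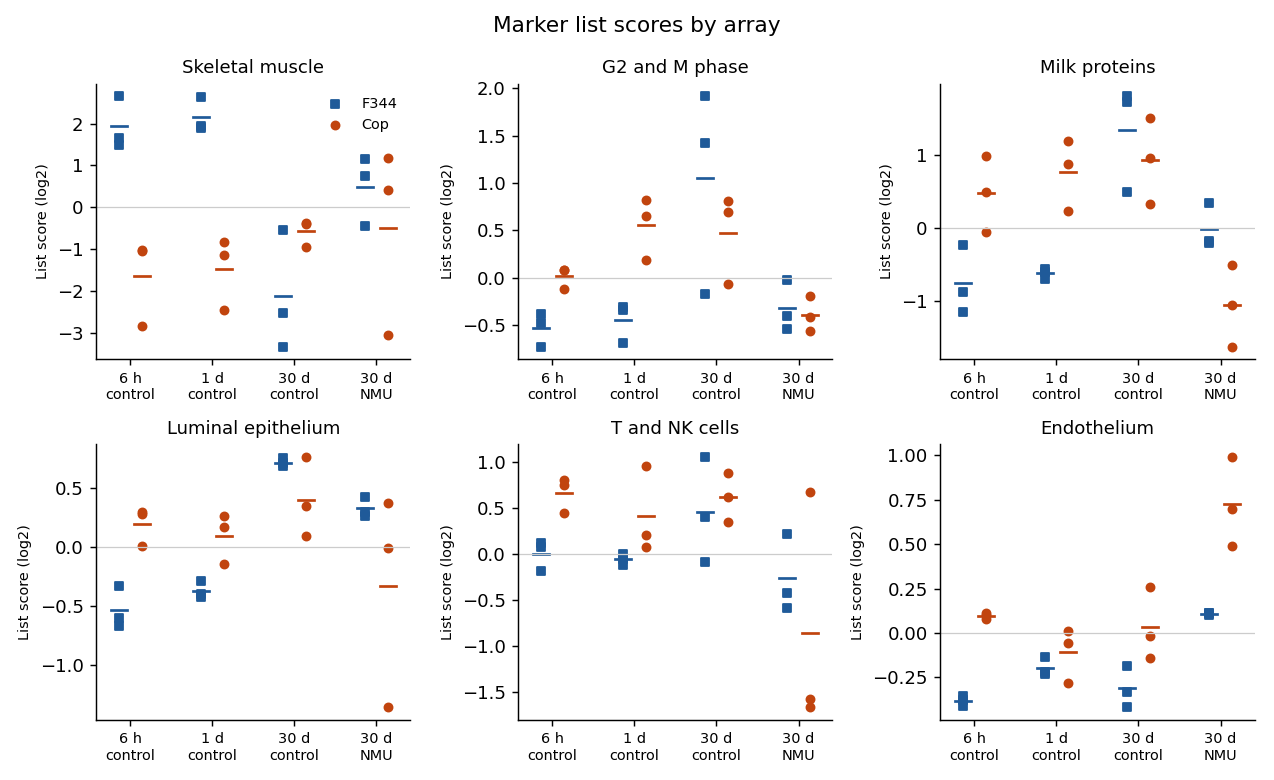
Scores of 6 marker lists (mean deviation of the listed genes from their mean over all arrays, log2, vertical axis) for each array of the early controls, the 30 d controls and the 30 d NMU glands; horizontal strokes are means of 3 arrays. In the 30 d controls the strains overlap for every list shown except endothelium. F344 replicate 1 has the lowest muscle score (-3.33).

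The strain difference was then followed into glands that share no array with the 30 d controls. In the early controls 6202 probe sets (29.9%) were called, 3468 (16.7%) higher and 2734 (13.2%) lower in Cop. With the muscle score in the model, that count was 1821 (792 higher, 1029 lower). In the 30 d NMU glands 1310 (6.31%) were called, 643 (3.1%) higher and 667 (3.21%) lower. Of the 587 called at 30 d, 441 (75.1%) were called in the same direction in the early controls, which is 7.11% of the early calls, and 15 in the opposite one. With the muscle score those numbers were 345 (58.8%) and 2. In the NMU glands 402 (68.5%) were called the same way, 30.7% of the NMU calls, and 1 the opposite way. The direction was the same for 88.4% in the early controls and 98.8% in the NMU glands, against 55.4% and 69.7% of all probe sets tested. Across the 587 the correlation of differences (Pearson, across probe sets, which are not independent) was 0.899 and 0.957. The 3 comparisons share no array, but their tests use the same pooled spread.

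**Figure D4:**
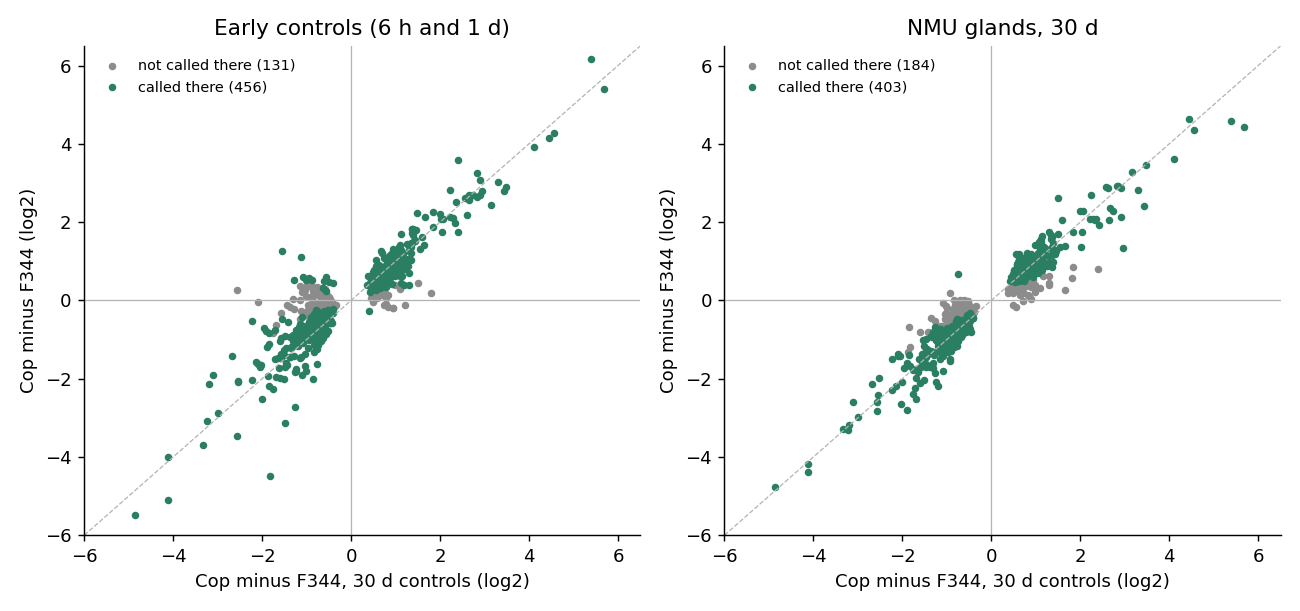
Cop minus F344 differences (log2) of the 587 probe sets called in 30 d controls (horizontal axis) against the differences in the early controls (left) and in 30 d NMU glands (right); green points are called there too, and the dashed line marks equality. Most points follow the line in both panels, and points below 0 on the horizontal axis scatter more in the early controls.

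A core of probe sets differed between the strains on all 4 occasions examined, which leave out the NMU glands of 6 h and 1 d (not analysed here). In all 3 comparisons 341 probe sets were called the same way, and 280 of them (145 higher and 135 lower in Cop, 167 named genes) had no overlap of the strains at 6 h, 1 d and 30 d in controls and at 30 d after NMU. Irrespective of calls, 474 (2.28%) of all probe sets tested had that separation. Whether these probe sets bind the RNA of both strains equally was not tested, and recurrence on 4 occasions does not decide it. The Mx2 probe set given above had differences of 4.14 in the early controls and 4.63 after NMU. The brighter Mx2 probe set had -0.44 and -0.67. Lcn2 was higher by 6.18 in the early controls and 4.59 after NMU, RGD1309362 by 4.27 and 4.36, and Cyp4v3 by 2.62 and 2.89. Hpse was higher by 2.21 and 2.28, RT1-A by 1.98 and 2.05, Hyou1 by 1.83 and 1.47 and Crim1 by 1.82 and 1.19. These 7 genes belong to the core of genes that were higher in Cop on these occasions.

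The core also held genes that were lower in Cop on all 4 occasions. Clec3b had differences of -5.49 in the early controls and -4.77 after NMU, Ephx2 of -3.69 and -3.30, and Grifin of -3.47 and -2.82. Those of Scd were -1.49 and -2.25, of Akr1c19 -1.73 and -1.50, and of Itga1 -2.52 and -2.07. Klkb1, plasma prekallikrein, had -1.60 in the 30 d controls, -1.98 in the early controls and -2.12 after NMU. In the 30 d controls, however, no Cop array and only 1 F344 array was above the dim limit for Klkb1. With dim values raised as above, -0.21 remained there, so the size of -1.60 is uncertain. LOC102548586, an uncharacterised locus, had -1.46, -1.59 and -1.45. That no Cop array of these 8 genes reached the values of F344 follows from how the core was defined and is not further support.

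Other calls were seen at 30 d alone or were of another size there. The difference between the 30 d and the early strain difference was itself called for 1054 probe sets (5.08%), 497 (2.4%) positive and 557 (2.68%) negative. It shares the 30 d control arrays, so it was used to describe size and not as support. Of the 1054, 967 were not called at 30 d, and 912 of these had been called in the early controls, where all 29 skeletal muscle genes were lower in Cop (median -4.16), against 14.3% of all genes. With 1 probe set per gene this test called 6.2% of genes, 2.79% positive. Of 55 genes called both at 30 d and in this test, 52 were lower in Cop at 30 d and 3 higher. In the early controls 38 of the 55 were not called. In the NMU glands 24 of the 52 were called lower too, where 3.02% of all genes were. The 52 had, however, been picked as called at 30 d. Of all 587 probe sets called at 30 d, 68.5% were called the same way in the NMU glands.

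Among these genes Krt15 had a difference of 0.28 in the early controls (limma adjusted p = 0.58) against -2.57 at 30 d and -2.60 after NMU. In F344 its mean was 10.45 ± 0.87 in the 30 d controls (SD, n = 3), the highest of the 4 occasions. Rnf180 had -0.04 early, -2.09 at 30 d and -1.36 after NMU, and Gpx2 had -0.52, -2.23 and -1.51. Erbb2 had 0.25 early and -0.56 after NMU, Wif1 -0.11 and -1.40, and Gzma 0.26 and -0.80. All 6 were higher in F344 at 30 d with and without the carcinogen, and their 30 d minus early difference was called.

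Spp1 followed another course, with differences of 0.18 in the early controls (limma adjusted p = 0.48), 1.81 in the 30 d controls and 0.56 after NMU (limma adjusted p = 0.2). Npw, a neuropeptide precursor, had 5.75, 5.48 and 5.39 in Cop and 6.79, 6.43 and 6.69 in F344 in the 30 d controls (difference -1.10, limma adjusted p = 0.000159), against 0.22 in the early controls and -0.07 after NMU. Both were therefore called in the 30 d controls and in neither other comparison, as were 74 probe sets in all. The direct test of the control minus the NMU difference, given below, called neither gene nor any other probe set. Cbr1 went the other way, with a larger difference in the early controls (-3.13) than at 30 d (-1.48).

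The muscle score moved with this test. It lay between 1.49 and 2.66 in the early F344 arrays, between -2.84 and -0.83 in the early Cop arrays, and overlapped between strains at 30 d. Including that score in the model left 39 calls in place of 1054, of which 36 were shared, and among the genes named here Cbr1 (limma adjusted p = 0.0206) and C5h8orf88 (limma adjusted p = 0.0137) kept the call. The count was 346 without F344 replicate 1, 515 without Cop replicate 1 and 583 without F344 replicate 3 of the 30 d controls.

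**Figure D5:**
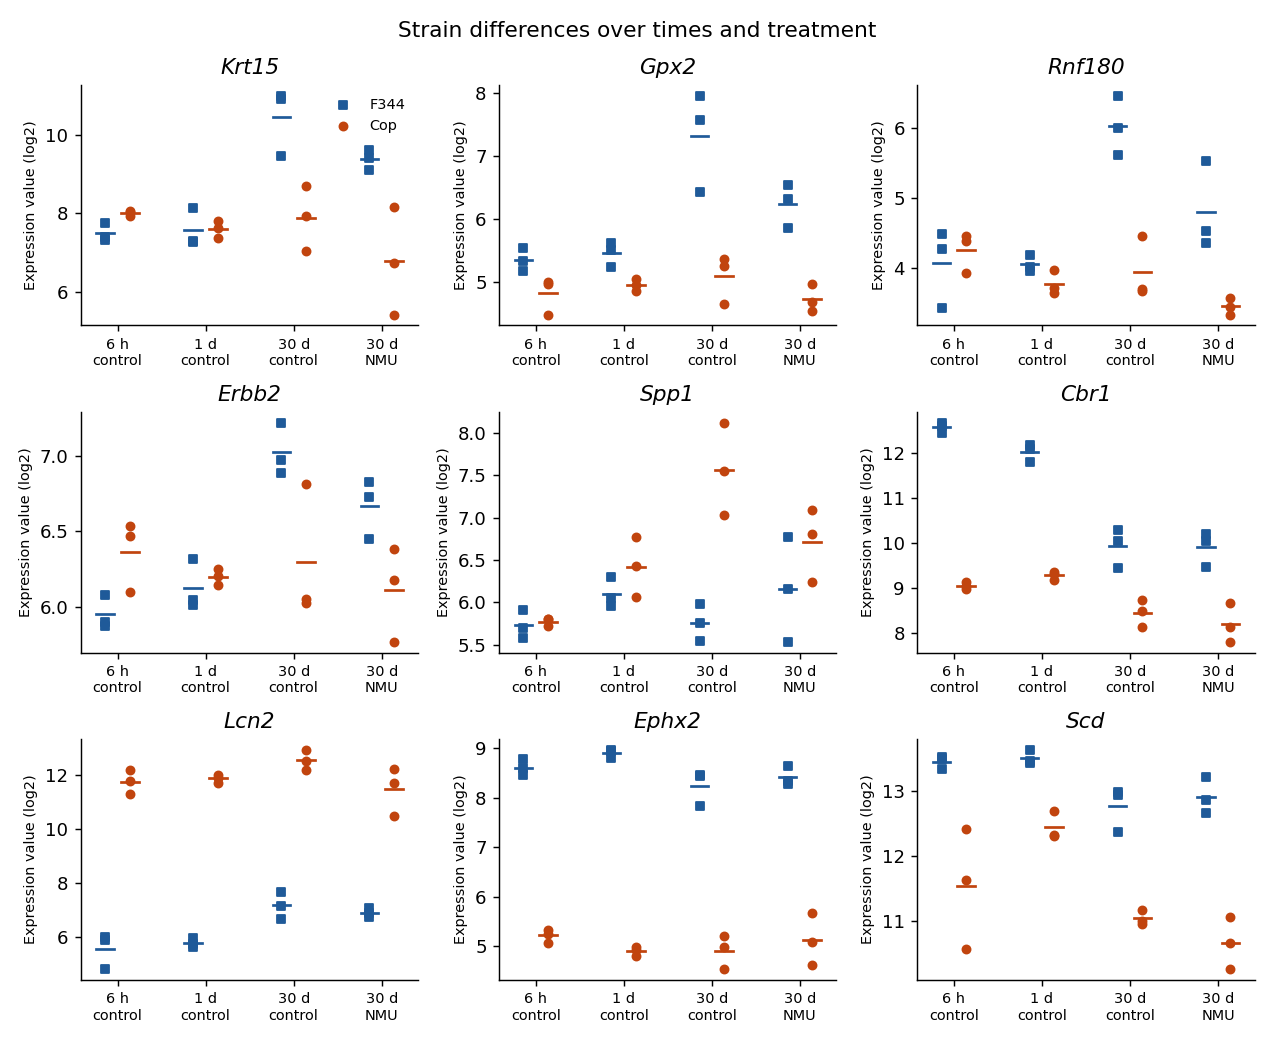
Log2 expression values (vertical axes) of 9 genes in each array of both strains at 6 h, 1 d and 30 d in controls and at 30 d after NMU; horizontal strokes are means of 3 arrays. Krt15, Gpx2 and Rnf180 separate the strains at 30 d, while Lcn2, Ephx2 and Scd separate them on all 4 occasions.

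Whether the strain difference at 30 d depended on the carcinogen was tested directly. The control difference minus the NMU difference was called for 0 of 20749 probe sets (0%) by limma, with 678 at an unadjusted p under 0.05 and a smallest adjusted p of 0.387. Single calls appeared when arrays were left out: 4 without F344 control replicate 2, 45 without Cop NMU replicate 1 and 1 without F344 NMU replicate 3. For Lcn2 the 2 differences were 5.40 and 4.59, for Clec3b -4.86 and -4.77, for Ephx2 -3.33 and -3.30 and for Scd -1.72 and -2.25. A p above the threshold does not show that the differences were equal.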

How the data were processed

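The values analysed are on a log2 scale, 1 per probe set and array, as deposited by the authors. The submitters' processing notes name GCOS but cover no normalization (method not given in the sources used here). Array medians lay between 5.66 and 5.77, so no further scaling was applied. Of 31099 probe sets, 20832 carry 1 gene symbol by the platform annotation, 436 several and 9831 none. Those above the 40th percentile of their array on at least 3 arrays were tested (20749; 10293 were dim, 57 are controls), and for gene counts the brightest probe set stands for its gene. The limma package (version 3.58.1, R 4.3.3) fitted 12 group means to the 36 arrays (trend and robust empirical Bayes, two-sided, Benjamini-Hochberg over all probe sets tested, called under 0.05), so the spread is pooled over all groups. The procedure was tested on simulated data.

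Named genes are the 15 largest called non-overlapping differences each way, called members of lists with at least 2 calls, the 10 steadiest genes each way, the 8 largest 30 d minus early differences each way, the leading control minus NMU genes, and a set of marker and hormone genes. Muc1, Insr, Cd68, Plk2, Bmp4 and Il6st, single calls of their lists, and the Mx2 and further RT1 probe sets were added after their values were seen. The 46 lists hold 984 entries, 773 tested. The comparison, the lists and the genes looked at were chosen with earlier results of these data known. Alternatives were quantile normalization, a floor, other filters, no trend, a replicate block, the compared arrays alone, array weights, scores as covariates, and leaving out each array.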

Additional observations from a re-analysis of the deposited data

Results flagged for a closer look

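For 30 named genes the strain difference (Cop minus F344, log2) in the 30 d controls was not that of the early controls, by a limma test of the 30 d difference minus the early difference. Skeletal muscle genes had the largest positive values: 8.23 for the myosin light chain Myl11, 7.53 for Tnnc2, 7.40 for Myl1, 7.39 for the creatine kinase Ckm, 7.22 for Tnni2, 7.08 for Acta1, 7.05 for Pvalb and 7.0 for Atp2a1. None of these 8 genes was called at 30 d.

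The largest negative values among genes without a call at 30 d were -5.12 for Clca1, -3.74 for the Egf family ligand Areg, -3.19 for the fatty acid carrier Fabp3, -2.96 for the complement component C3 and -2.41 for the phosphate transporter Slc34a2. The dividing-cell genes Ccna2, Nusap1 and Mki67 had -2.48, -2.37 and -2.28, and Amdhd2 had -0.62.

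Among genes called in the 30 d controls, the value was -2.84 for Krt15, -2.05 for Rnf180, -1.71 for Gpx2, -1.33 for Wif1, -1.31 for Npw, -1.30 for Gzma, -1.06 for Cemip2, -0.98 for Phactr1, -0.97 for Erbb2 and -0.91 for Stat5a. It was 2.68 for C5h8orf88 and 1.65 for Cbr1, whose early differences were the larger ones, and 1.62 for Spp1. With the muscle score as a covariate, C5h8orf88 and Cbr1 kept the call among these 30 genes. The part of muscle tissue in the other values was not tested further.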

How the results depend on the processing

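In the 30 d controls the count of called probe sets was 587. It was 133 with the compared arrays alone and 322 to 797 when each array was left out, the lowest without F344 replicate 1. The other alternatives kept it between 461 and 745. Of 63 named genes called at 30 d, 36 kept the call whichever array was left out, 32 lost it with the compared arrays alone, and none of the 94 named genes reversed. With a gene's probe sets averaged, the count of calls was another one in 6 of the 46 lists, among them immediate early (1 in place of 0), imprinted (2 in place of 1) and susceptibility candidates (0 in place of 1), and with quantile normalization in 11.

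Same-numbered replicates of the strains did not deviate together (correlations -0.11, -0.37 and -0.27). Pairs with different numbers ran from -0.48 to 0.57. With 3 arrays per strain these values cannot decide whether the numbers pair the arrays. The replicate block gave 461 probe sets in the 30 d controls.

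For the early controls the count was 6202, and 1821 with the muscle score as a covariate. For 30 d NMU it was 1310, 196 with the compared arrays alone, and 546 to 2062 by array left out. For the 30 d minus early difference it was 1054, 608 with the replicate block, 39 with the muscle score, 463 with the G2 and M phase score, and 346 to 1074 by array left out. Chosen after seeing the data were runs without the 6 h controls (early 3149, 30 d minus early 507) and without the 1 d controls (3942 and 511). A further such run left out F344 control replicate 2 at 1 d (5260 and 789). That array and replicate 1 of its group were the closest replicate pair of the series (root mean square 0.163, the next pair 0.232). For the control minus NMU difference the count was 0, and 0 to 45 by array left out. The cause of these changes was not tested. Dim probe sets, 10293 in number, could not be assessed.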

Other observations

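Neighbouring genes were looked at for shared differences. Of 306 called genes with a place in the gene order of the RefSeq table, 23 (7.52%) had a called direct neighbour, against 5.12% of the genes not called, as a description without a test. These neighbours formed 11 runs. The longest held Cyp4v3, Klkb1 and Fat1, with log2 differences of 2.57, -1.60 and -0.41. The adjacent genes Cyp4v3 and Klkb1 thus had opposite signs, but Klkb1 was dim in every 30 d control array except 1 of F344. With its dim values raised, -0.21 remained for Klkb1. Akr1c13 and Akr1c19, neighbouring aldo-keto reductases that are close copies of each other, had -1.28 and -1.63, and Minpp1 and Papss2 had -0.66 and -1.14.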
